A study of Mus musculus with 12 samples.

Results

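The solute carrier (SLC) genes examined here are the rows of the deposited gene table whose symbol begins with Slc followed by a digit and whose signal was over 6 reads per base pair (rpbp) in at least 1 of 12 Nascent-Seq libraries of mouse liver. This rule gave 97 genes out of 304 such rows, in a table of 21490 gene symbols of which 6284 passed the same limit. Nascent-Seq sequences RNA that is still bound to chromatin in purified nuclei, so the signal follows transcription more closely than the level of finished mRNA does. Livers came from wild-type male mice of the C57BL/6 strain, 3 to 6 months old, kept in 12 hr of light and 12 hr of darkness, with no other treatment or mutation in any group. They were taken at Zeitgeber times (ZT) 0, 4, 8, 12, 16 and 20 hr, where ZT0 is lights on and ZT12 lights off, with 2 libraries per time point from 2 independent series. Wild-type animals at each time are the only groups, so every comparison below is between times of the day.

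Solute carriers are membrane proteins that move small molecules such as sugars, amino acids, nucleotides, vitamins, metal ions and bile salts down or against a gradient, without hydrolysing ATP themselves. In hepatocytes, some lie on the blood-facing membrane and exchange substrates with plasma, some on the bile-facing membrane, and others in mitochondria, lysosomes or the Golgi. The family number in the symbol reflects sequence relation, so members of a family often, but not always, share a kind of substrate.

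The 97 genes were selected on measured values, the highest of the 12 signals, and what follows on that level is description. Of the 304 SLC rows, 17 had a signal of 0 in all 12 libraries. Of the 97 members, 44 were over the limit in all 12 libraries, 72 had a mean over 6 rpbp, 14 passed in 1 library only, and 17 passed at 1 time point only. A member of the last kind was high at that time by selection, so no count over the 97 genes is support for a time-of-day effect. Just inside the limit, Slc16a6, Slc35e1 and Slc6a9 each had a highest signal of 6.2 rpbp, and just outside it Slc39a13, Slc43a3 and Slc7a6os each had 6.0 rpbp. Slc9a3r1, a member by its name, encodes a scaffold protein that binds a carrier and is not a carrier itself. All 97 members matched a gene of the same name and place in GENCODE for the mm9 build. The signal took no account of strand, and exons of 27 members overlapped those of another annotated gene, 10 of them over more than 10% of their exon length, so reads there could come from either gene.

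Summed signal ran from 118342 to 160545 rpbp per library after scaling to a common number of mapped reads. These scaled sums do not give the size of a library. The ZT8 and ZT20 libraries, each sequenced in 2 lanes, were the more deeply sequenced ones, and no read count per gene was derived here from the scaled values. For a GC trend, genes were put in 20 bins of exon GC content. Each gene's log2(rpbp + 1) was taken as a deviation from its own mean over the 12 libraries. The median deviation in the bin of highest GC minus that in the bin of lowest GC was -1.20 in ZT8 replicate 2. It was -0.59 in ZT20 replicate 2 and -0.14 to 0.56 in the other 10 libraries. The hepatocyte markers Alb, Ttr, Apoa1, Apob, Serpina1c and Tat were all over 6 rpbp, and their summed signal ran from 539.2 to 1696.1 rpbp, lowest at ZT16. The 4 markers of Kupffer cells and macrophages summed to 14.6 to 37.6 rpbp, highest at ZT12, the 4 of endothelial cells to 8.5 to 20.7 rpbp and the 4 of stellate cells to 8.0 to 12.8 rpbp. The 3 measured cholangiocyte markers reached at most 1.0 rpbp in sum and lymphocyte markers 8.0 rpbp. The 3 measured erythroid markers summed to 8.5 to 14.6 rpbp, nearly all from Alas2. Alas2 had a mean of 11.7 rpbp, Hbb-b1 0.04 rpbp and Slc4a1 0 rpbp. Markers of pancreas, skeletal muscle, adipocytes and kidney tubule were at most 0.1 rpbp in sum. The part of other cell types in the values below was not tested. Fewer cells of a type and less RNA per cell cannot be told apart in such bulk samples.

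The 97 genes spanned a wide range of signal. Slc38a3, which carries glutamine, histidine and asparagine across the hepatocyte membrane, had the highest mean at 165.7 rpbp (SD 65.2 over 12 libraries). Slc27a2, a fatty acid transport protein that is also a very long-chain acyl-CoA synthetase, followed at 146.7 rpbp (SD 54.7). The median over the 97 members was 9.03 rpbp, against 7.63 rpbp over all 6284 genes tested, both of which depend on the same limit. After the leading pair came the mitochondrial ATP-Mg/phosphate carrier Slc25a25 (67.9 rpbp), the arginine carrier Slc7a2 (65.0 rpbp) and the neutral amino acid carrier Slc38a4 (64.4 rpbp). Slc39a14, an importer of zinc, iron and manganese, had 43.2 rpbp, and the dicarboxylate carrier Slc25a10 had 41.8 rpbp. Slc17a2, of the organic anion and phosphate family, had 41.2 rpbp, Slc27a5, a bile acid and fatty acyl-CoA ligase, 37.4 rpbp, and the potassium-chloride cotransporter Slc12a7 33.3 rpbp. The sulfate carrier Slc26a1 (33.1 rpbp) and the nucleoside carrier Slc29a1 (32.1 rpbp) closed the first 12. Neighbours in this order had overlapping ranges over the 12 libraries, and these ranges include differences between times of the day. The order between neighbours was not tested.

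**Figure D1:**
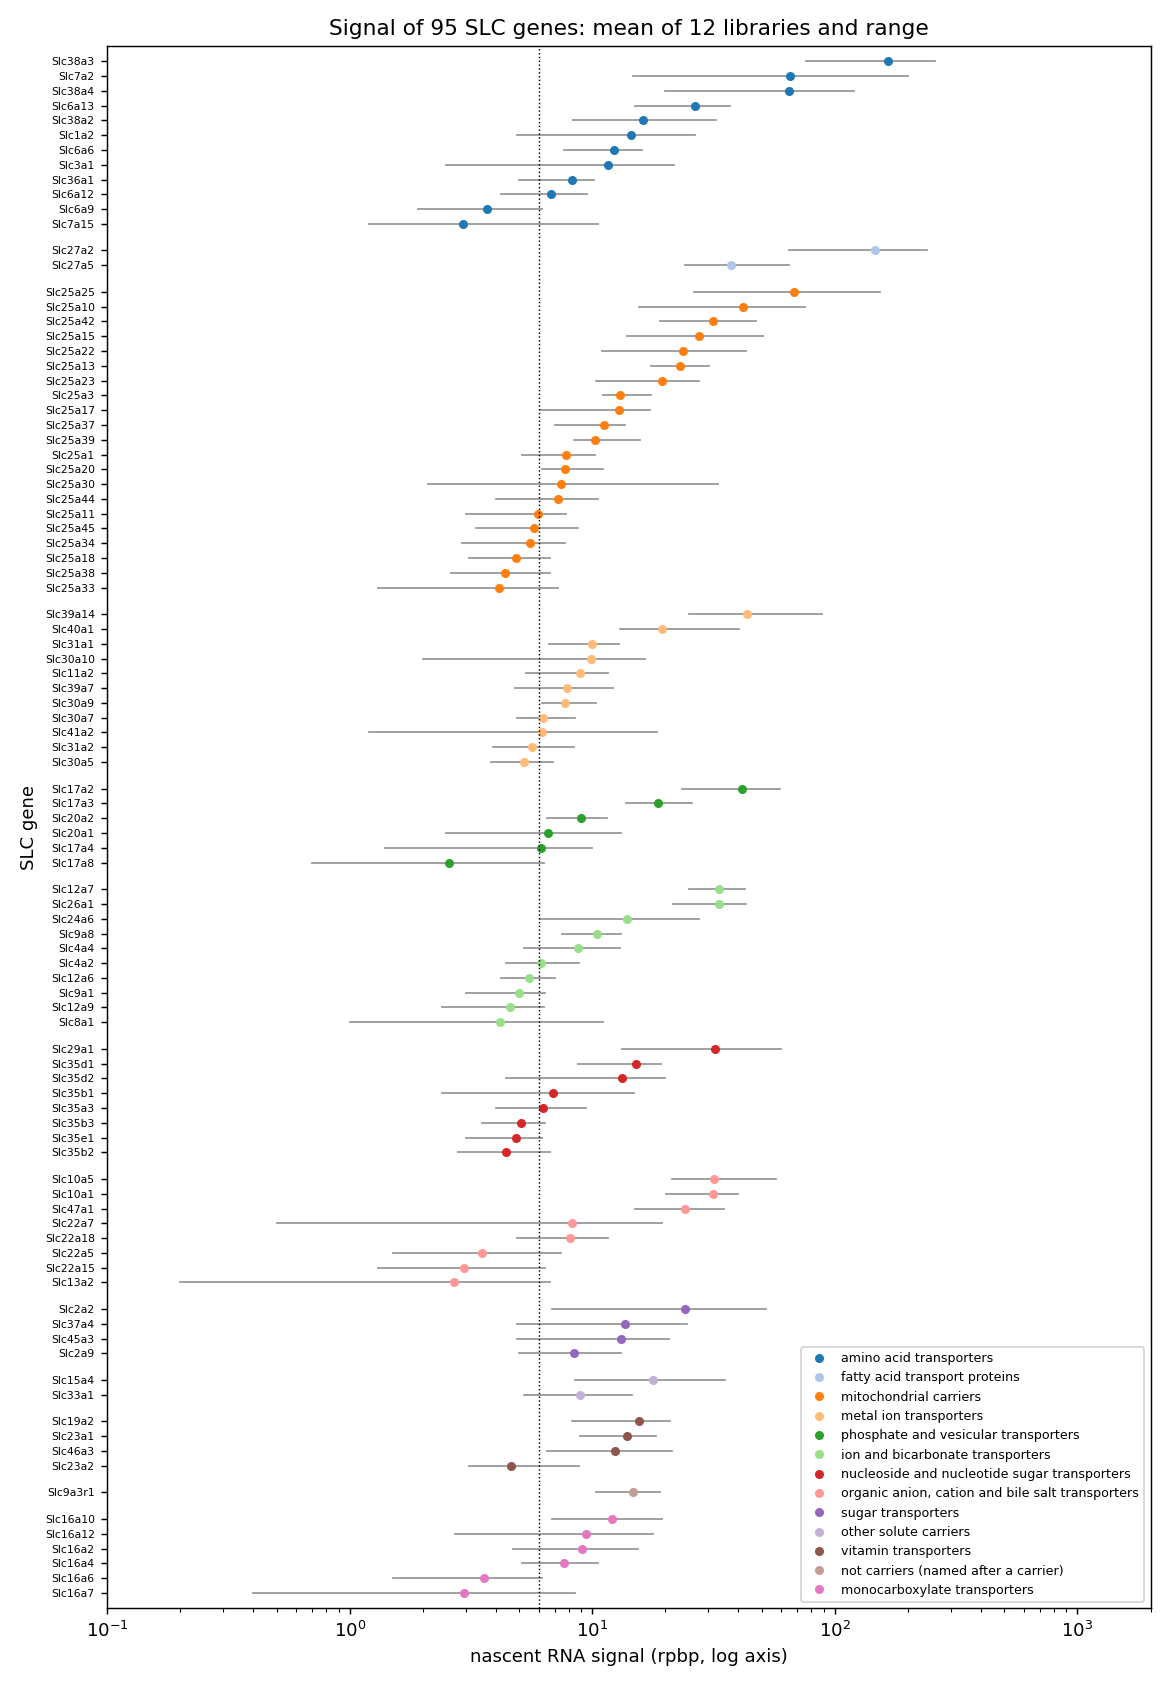
Mean nascent RNA signal of 95 of the 97 SLC genes over 12 libraries (points, rpbp on a log axis), with the lowest and highest library (grey lines), grouped and coloured by class of substrate. The dotted line is the 6 rpbp limit that every member passed in at least 1 library, and Slc38a3 and Slc27a2 lie furthest to the right, at 165.7 and 146.7 rpbp.

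The levels were not steady between libraries of 1 time point. Between the replicates of a time point, the median fold difference over members above the limit ran from 1.23 at ZT4 to 1.44 at ZT16. The share of members that differed by more than 1.5-fold ran from 15.5% at ZT4 to 39.0% at ZT16. The median coefficient of variation over the 12 libraries was 0.293 for the members and 0.252 for all genes tested. The highest and lowest time-point means of a member differed by a median of 1.89-fold, against 1.73-fold over all genes. In 89 of the 97 members both libraries of the highest time point lay above both of the lowest, and the share over all genes tested was 90.6%, so this separation is the rule in the table. Most often the highest mean was at ZT12, in 32 members (33.0%, against 27.5% of all genes), and the lowest at ZT16, in 33 members (34.0%, against 34.3%).

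Rhythmic transcription was called with the criteria of the study: F24, the share of a gene's variance in a cosine of 24 hr, over 0.45, a one-sided permutation p under 0.05, and the highest over the lowest signal above 1.5. By these criteria 20 of the 97 members were called rhythmic (20.6%), and 15.2% of all genes tested were. The p is not adjusted. After Benjamini-Hochberg adjustment, 39 of all 6284 genes remained under 0.05, and Slc38a3 was the only member among them. Of the 20 calls, 14 were among the 72 members with a mean over 6 rpbp and 8 among the 44 members over the limit in every library. Slc22a5 and Slc22a15 were members through 1 library each. A limma F-test for any difference among the 6 time points, on log2(rpbp + 1), passed an adjusted p of 0.05 in 12 members, 12.4%, against 7.65% of all genes tested. Of these 12, 9 had a mean over 6 rpbp, and 6 were also called rhythmic. Among the 44 members over the limit in every library, 3 passed the F-test (6.82%). The libraries of ZT8 and of ZT20 were each sequenced in 2 lanes and those of the other times in 1 lane, so the number of lanes and these time points cannot be told apart across the whole day. A further F-test took the differences among ZT0, ZT4, ZT12 and ZT16, each library in 1 lane. It passed in 4 members, Slc41a2, Slc30a10, Slc17a4 and Slc38a3, against 3.34% of all genes. The spread of each gene was still estimated from all 12 libraries.

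**Figure D2:**
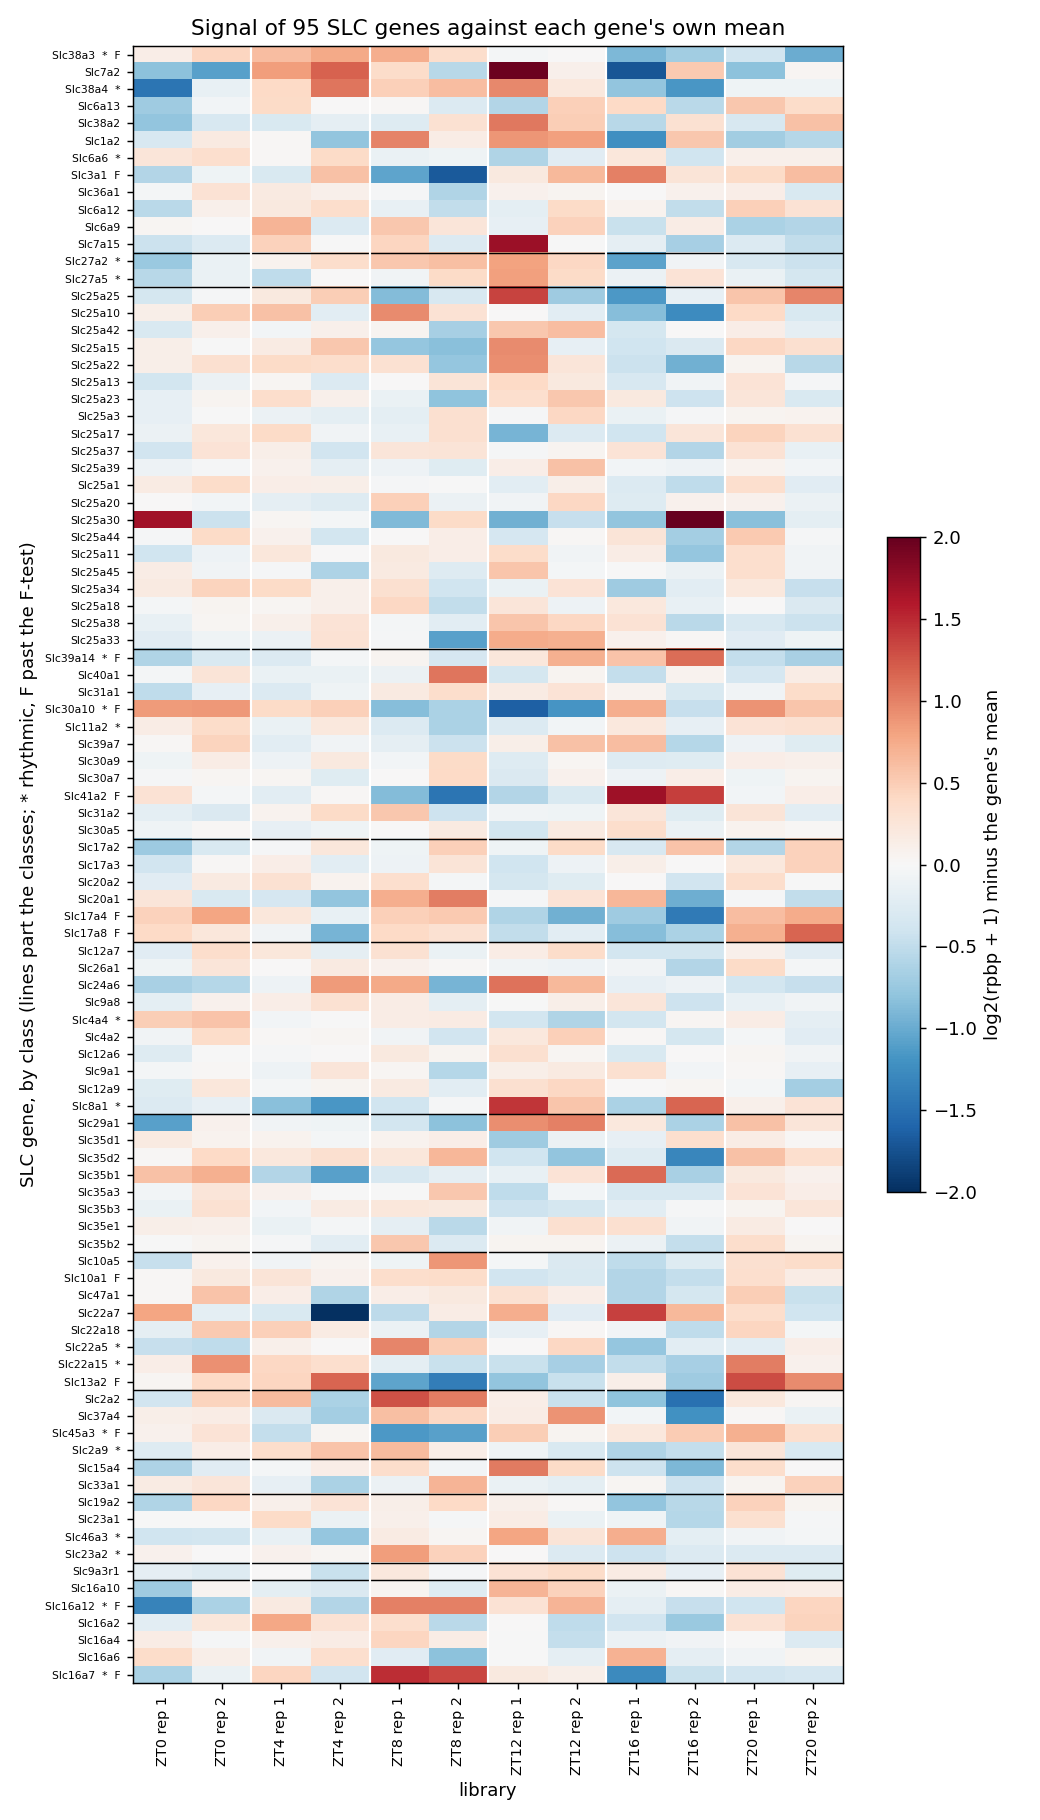
Signal of 95 of the 97 SLC genes in each of the 12 libraries as log2(rpbp + 1) minus the gene's own mean (colour, red higher, blue lower), with genes in rows by class of substrate and libraries in columns by time point. An asterisk marks 18 genes called rhythmic and F the 12 past the F-test, and in many rows the replicates of a time point differ in colour, as in the ZT16 pair of Slc25a30 at 2.5 and 33.0 rpbp.

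The members are taken below by class of substrate, and each class is small, so its counts stand beside the same shares of all genes tested, 15.2% by the rhythm criteria and 7.65% by the F-test. Among amino acid carriers, 12 genes were members, 3 were called rhythmic and 2 passed the F-test. Slc38a3 had 167.1 and 206.4 rpbp at ZT0, 236.3 and 258.6 at ZT4, 253.6 and 195.1 at ZT8, 148.8 and 153.2 at ZT12, 81.5 and 94.5 at ZT16, and 117.2 and 76.3 at ZT20. All 6 libraries from ZT0 to ZT8 lay above all 6 from ZT12 to ZT20. Its F24 was 0.918, the highest of the members, with a cosine peak at 5.22 hr, an unadjusted permutation p of 0.00015 and an adjusted p of 0.0449. The F-test gave an adjusted p of 0.0172, and 0.0332 among the 1-lane time points. Signal at ZT4 was higher than at ZT16 by 1.48 on the log2 scale (SE 0.24, adjusted p = 0.0231, limma), and at ZT8 higher than at ZT20 by 1.23 (SE 0.24, adjusted p = 0.0406). The call between ZT8 and ZT20 was lost in 10 of the 12 fits that left out a library, and with a replicate block. The call between ZT4 and ZT16 was lost in 2 of these 12 fits, and with a mean-variance trend.

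Slc38a4 had 19.9 and 51.2 rpbp at ZT0, 75.1 and 119.9 at ZT4, 78.8 and 87.7 at ZT8, 111.4 and 65.7 at ZT12, 32.2 and 24.7 at ZT16, and 53.2 and 53.0 at ZT20. High values fell at ZT4 to ZT12, but the replicates at ZT0, ZT4 and ZT12 differed by more than 1.5-fold. Its F24 was 0.507 with a permutation p of 0.0454, and this call was lost in 10 of the 12 fits that left out a library. The taurine carrier Slc6a6 ranged from 7.6 to 16 rpbp with its peak at 0.218 hr and an F24 of 0.618. The peak of Slc6a6 was at 22.1 hr in the first series and at 1.7 hr in the second.

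Slc3a1, the partner subunit of the cystine and dibasic amino acid carrier, passed the F-test (adjusted p = 0.040) and was not called rhythmic. It had 4.4 and 2.5 rpbp at ZT8 and 13.6 and 16.2 at ZT20, a difference of -1.87 on the log2 scale (SE 0.37, adjusted p = 0.0406, limma). No library of ZT8 reached the lowest of ZT20. Exons of Slc3a1 overlapped those of Prepl over 26.4% of their length. The call was lost in 8 of the 12 fits that left out a library. Slc7a2 had a coefficient of variation of 0.799, with 199.9 and 54.3 rpbp at ZT12 and 14.7 and 73.1 at ZT16, and neither test called it (F24 0.212, F-test adjusted p = 0.235). The glutamate carrier Slc1a2 and the neutral amino acid carrier Slc38a2 had F24 values of 0.484 and 0.368 and permutation p of 0.0613 and 0.118. A clone-named row on a span overlapping Slc1a2, AK018918, was called rhythmic, at 10.2 hr, beside a phase of 10.3 hr for Slc1a2. The row mKIAA1382, on a span overlapping Slc38a2, was not called.

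Both fatty acid transport proteins that were members were called rhythmic, of 6 rows of this family. Slc27a2 had 81.1 and 124.1 rpbp at ZT0, 143.5 and 175.7 at ZT4, 198.8 and 209.0 at ZT8, 240.3 and 183.5 at ZT12, 64.4 and 129.8 at ZT16, and 109.0 and 101.6 at ZT20. The 4 libraries of ZT8 and ZT12 were its 4 highest. Its F24 was 0.723 (permutation p = 0.00501, adjusted p = 0.130) with a peak at 8.83 hr. Slc27a5 had 24.1 and 32.7 rpbp at ZT0, 25 and 36.3 at ZT4, 34.4 and 47.3 at ZT8, 64.5 and 47.1 at ZT12, 33.3 and 43.7 at ZT16, and 32.7 and 28.0 at ZT20. Its highest library was at ZT12, and the other library of ZT12 was level with 1 of ZT8. Its F24 was 0.615 (permutation p = 0.00746, adjusted p = 0.149) with a peak at 11.8 hr. The F-test passed for neither (adjusted p = 0.0829 for Slc27a2 and 0.180 for Slc27a5). Exons of Slc27a2 overlapped the gene model Gm16762 over 11.2% of their length.

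The sequence before the start of transcription is shown for the 3 members with the highest F24 (Slc38a3, Slc30a10 and Slc27a2) and for Slc39a14, the rhythmic member with an E-box in this window. Each is the 250 bases upstream of the deposited gene start in mm9, 5′ to 3′ on the gene's strand as GENCODE gives it, and capitals mark the E-box CACGTG, which the dimer of CLOCK and BMAL1 is known to bind.
Slc38a3 (chr9:107571323-107571572, minus strand): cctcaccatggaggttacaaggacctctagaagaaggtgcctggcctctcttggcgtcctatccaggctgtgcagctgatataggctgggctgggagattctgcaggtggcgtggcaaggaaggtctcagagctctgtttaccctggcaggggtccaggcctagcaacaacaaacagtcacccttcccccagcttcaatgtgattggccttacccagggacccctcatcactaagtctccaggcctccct
Slc30a10 (chr1:187278477-187278726, plus strand): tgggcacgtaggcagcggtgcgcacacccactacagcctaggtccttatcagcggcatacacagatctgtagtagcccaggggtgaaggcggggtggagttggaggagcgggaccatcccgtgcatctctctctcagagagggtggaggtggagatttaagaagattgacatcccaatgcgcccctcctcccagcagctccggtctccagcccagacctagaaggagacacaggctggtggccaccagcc
Slc27a2 (chr2:126378510-126378759, plus strand): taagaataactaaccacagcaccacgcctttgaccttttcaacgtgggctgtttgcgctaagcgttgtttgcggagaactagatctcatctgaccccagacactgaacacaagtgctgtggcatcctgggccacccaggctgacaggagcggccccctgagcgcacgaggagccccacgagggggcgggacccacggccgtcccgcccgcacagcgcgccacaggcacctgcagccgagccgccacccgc
Slc39a14 (chr14:70751232-70751481, minus strand): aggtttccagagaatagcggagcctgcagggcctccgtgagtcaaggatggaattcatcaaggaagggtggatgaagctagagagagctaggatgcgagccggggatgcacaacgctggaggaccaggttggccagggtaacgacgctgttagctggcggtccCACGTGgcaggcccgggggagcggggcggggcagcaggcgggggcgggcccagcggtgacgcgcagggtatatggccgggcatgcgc
The E-box was in the window of 1 of the 20 rhythmic members and of 12 of the 97 members (12.4%), and in 8.89% of the windows of the 4306 tested genes with a GENCODE gene of the same name. The D-box forms TTATGTAA and TTACGTAA, which PAR bZIP factors bind, were in 0.302% and 0.209% of these windows and in none of the members. The motif TAGGTCA, known for REV-ERB and ROR receptors, was in 1.60% of windows and in that of 1 member, Slc37a4. Both strands were searched, and none of the 4 motifs overlaps another in these windows. A match is a run of letters and not a site of binding, and the windows without a match say nothing on the factors.

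Of the 11 metal ion carriers among the members, 3 were called rhythmic and 3 passed the F-test, against 15.2% and 7.65% of all genes. Slc30a10, a manganese exporter, had 15.9 and 16 rpbp at ZT0, 11.2 and 12.0 at ZT4, 4.2 and 5.0 at ZT8, 2.0 and 3.1 at ZT12, 14.4 and 5.8 at ZT16, and 16.4 and 12.7 at ZT20. The 4 libraries of ZT8 and ZT12 were its 4 lowest, and the ZT16 replicates were far apart. Its F24 was 0.843 (permutation p = 0.00099, adjusted p = 0.0741) with a peak at 22.6 hr. ZT0 was higher than ZT12 by 2.27 on the log2 scale (SE 0.33, adjusted p = 0.00590, limma), a 6.25-fold ratio of the means, and the F-test gave an adjusted p of 0.0148. Both calls were lost without ZT12 replicate 1, and the contrast also without ZT0 replicate 1. A clone-named row within its span, AK138296, was also called rhythmic, at 22.9 hr.

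Slc39a14, which brings manganese, zinc and iron into the cell, peaked on the other side of the day. It had 26.1 and 32.2 rpbp at ZT0, 33.0 and 38.9 at ZT4, 41.8 and 31.5 at ZT8, 47.0 and 66.3 at ZT12, 60.1 and 88.3 at ZT16, and 28.4 and 25.1 at ZT20. The 4 libraries of ZT12 and ZT16 were the 4 highest, and the fall to ZT20 took the signal to its lowest mean. Its F24 was 0.532 (permutation p = 0.0220) with a peak at 13.7 hr, and the F-test gave an adjusted p of 0.0358. That F-test call was lost in 10 of the 12 fits that left out a library. A row under another symbol on the same span, fad123, had a phase of 14 hr and was not called.

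Slc41a2, a magnesium carrier, gave the smallest adjusted p of the F-test among the members, 0.00508. It had 18.5 and 14.7 rpbp at ZT16, while the other 10 libraries lay between 1.2 and 6.4 rpbp. The F24 of Slc41a2 was 0.421, under the limit, with the signal high at 1 time point only. ZT4 was lower than ZT16, by -1.64 on the log2 scale (SE 0.25, adjusted p = 0.0161, limma), and ZT8 lower than ZT20, by -1.20 (SE 0.25, adjusted p = 0.0437). The latter call held in 5 of 19 alternative fits and was lost with a replicate block, with libraries rescaled by the median ratio and with the GC trend removed. The call between ZT4 and ZT16 was lost in 2 of the 12 fits that left out a library. Slc41a2 was over the limit in 3 libraries, both of ZT16 and 1 of ZT0.

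Slc11a2, a carrier of ferrous iron and other divalent metals, ranged from 5.3 to 11.6 rpbp with an F24 of 0.711 (permutation p = 0.00691) and a peak at 21.5 hr. It was lowest at ZT8, with 7.0 and 5.3 rpbp, and highest at ZT20, with 10.7 and 11. The row Nramp2, another name of this gene on an overlapping span, was not called rhythmic, so the call depends on which row is read. The iron exporter Slc40a1 (19.3 rpbp) and the copper importer Slc31a1 (9.95 rpbp) passed neither test, with F24 values of 0.126 and 0.298.

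The 22 mitochondrial carriers were the largest class of members, and 12 of them were over 6 rpbp in every library. None of these 22 passed the F-test, while 4 (18.2%) had an unadjusted p under 0.05 in it, against 27.6% of all genes tested. Slc25a25 had 153.3 and 36.2 rpbp at ZT12 and 88.1 and 118.5 at ZT20, with an F24 of 0.0249. Slc25a10 was highest at ZT8 (74.9 and 47.6 rpbp) and lowest at ZT16 (21.0 and 15.5), and its F-test missed the threshold (adjusted p = 0.0812). The ornithine carrier Slc25a15 had 14.6 and 13.9 rpbp at ZT8, its 2 lowest libraries, and an F-test adjusted p of 0.0935. The aspartate and glutamate carrier Slc25a13 and the acylcarnitine carrier Slc25a20 ranged from 17.4 to 30.2 and from 6.2 to 11 rpbp, and neither test called them. The replicates of Slc25a30 were far apart, with 18.3 and 3.5 rpbp at ZT0 and 2.5 and 33.0 at ZT16.

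**Figure D3:**
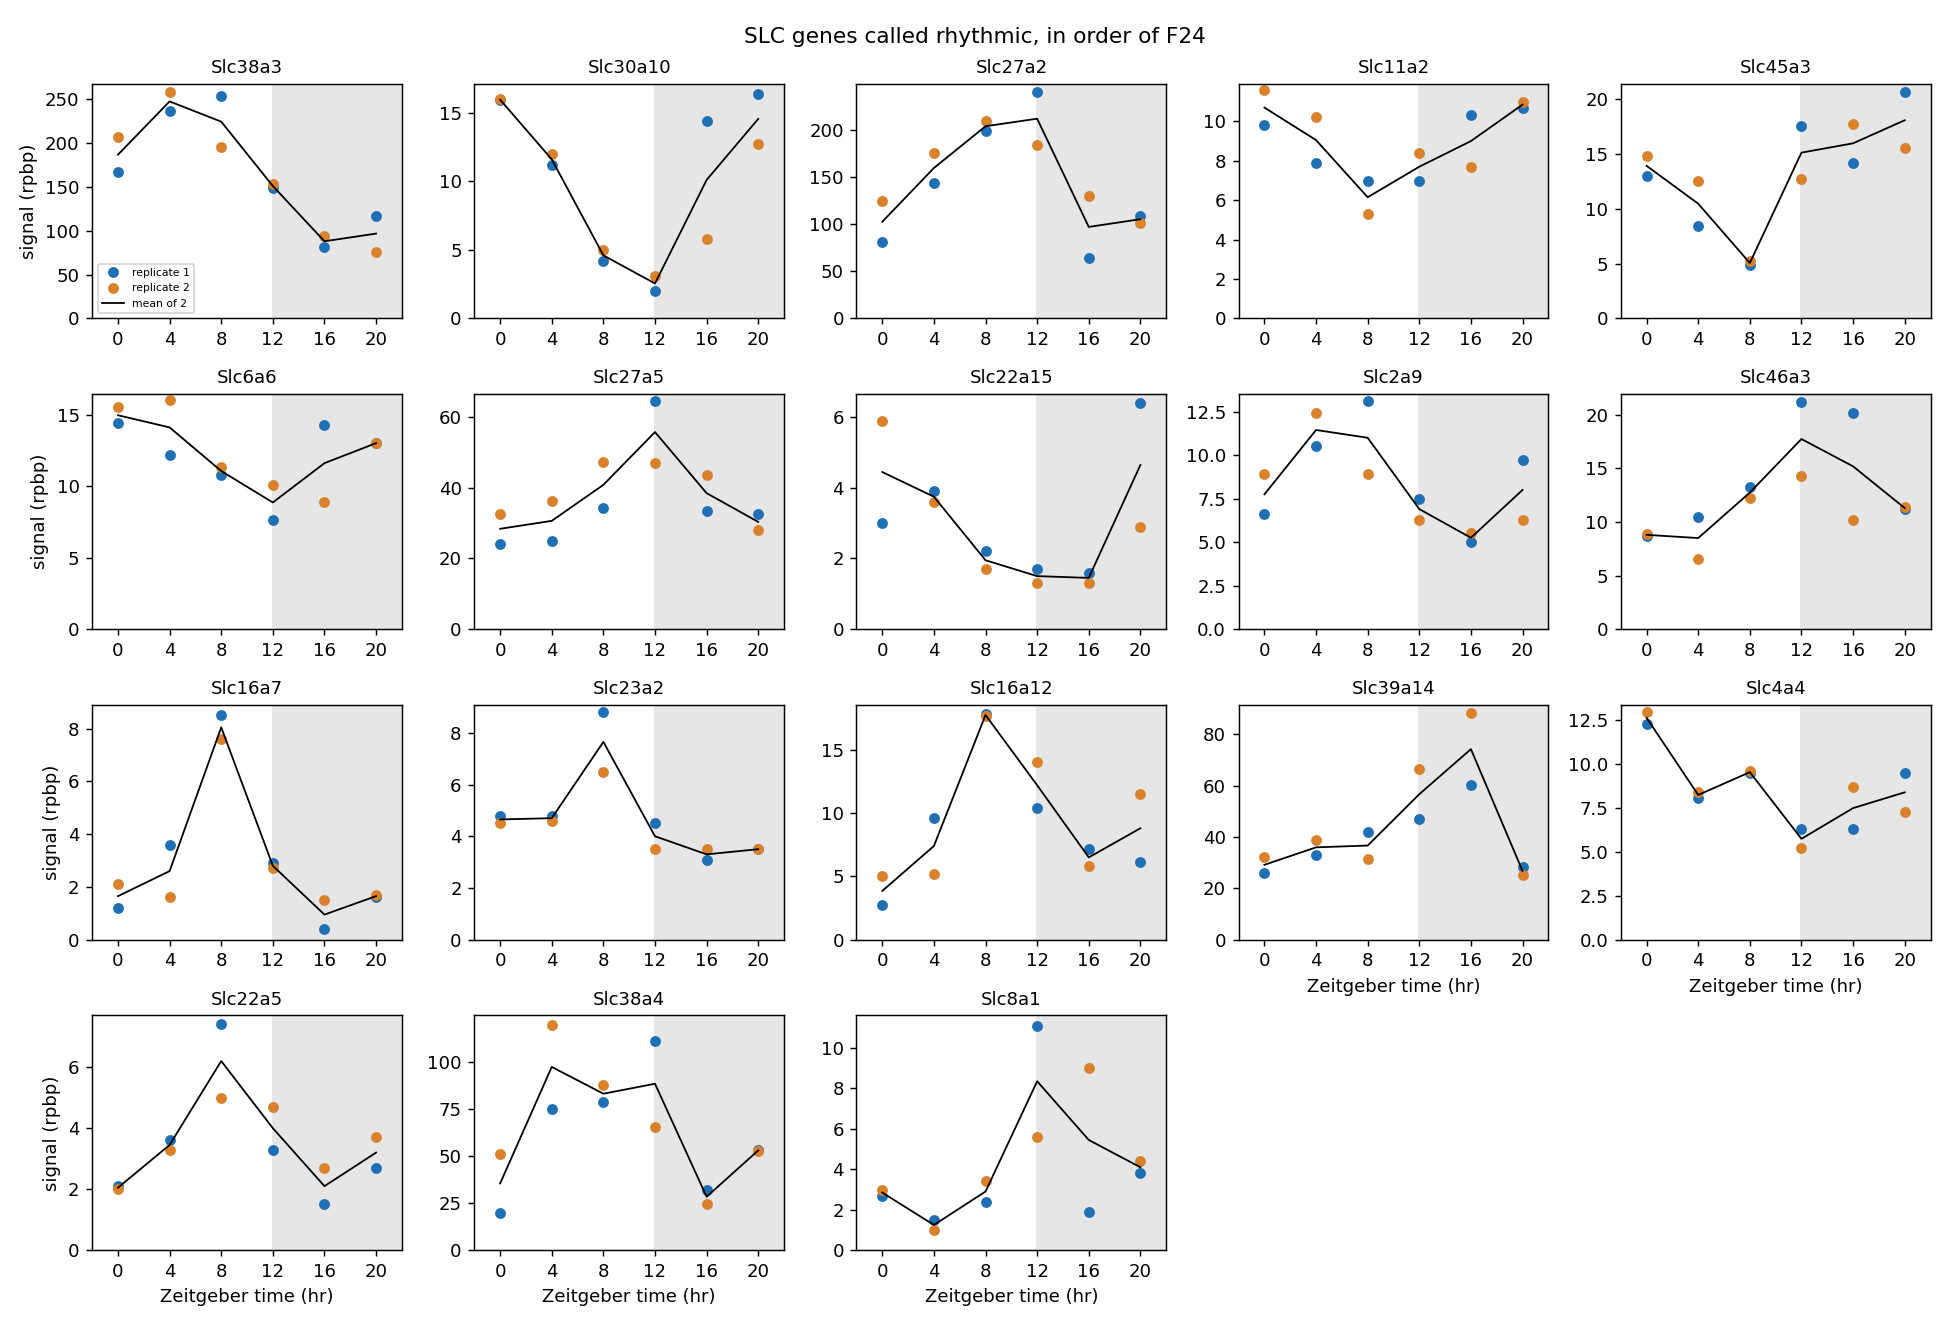
Nascent RNA signal (rpbp, axes from 0) against Zeitgeber time (hr) for 18 of the 20 SLC genes called rhythmic, in order of F24, with the libraries of each replicate series as points and the mean of 2 as a line, grey for the dark phase. Replicates lie close together in Slc38a3 and in Slc16a12 at ZT8 (17.8 and 17.7 rpbp) and far apart in Slc30a10 at ZT16 (14.4 and 5.8 rpbp).

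Of the 9 carriers of organic anions, organic cations and bile salts, 2 passed the F-test, against 7.65% of all genes. The carnitine carrier Slc22a5 (F24 0.512, peak at 8.43 hr) and Slc22a15 (F24 0.605, peak at 23.8 hr) were called rhythmic and had means of 3.50 and 2.96 rpbp. Each was a member through 1 library, so it was high there by selection, which its call does not stand apart from. The call of Slc22a5 was lost in 3 of the 12 fits that left out a library, and that of Slc22a15 in 0.

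Slc10a1, the sodium-dependent bile salt importer of the blood-facing membrane, had 31.1 and 35.2 rpbp at ZT0, 36.6 and 32.5 at ZT4, 39.2 and 39.7 at ZT8, 23.2 and 24.7 at ZT12, 20.1 and 21.7 at ZT16, and 38.8 and 33.9 at ZT20. The 4 libraries of ZT12 and ZT16 lay under the other 8. The F-test gave an adjusted p of 0.0443, its F24 was 0.493 and its permutation p of 0.0588 missed the criterion. That F-test call held in 2 of 19 alternative fits. Slc13a2, a citrate and dicarboxylate carrier with a mean of 2.69 rpbp, had 0.5 and 0.2 rpbp at ZT8 and 6.7 and 5.0 at ZT20. ZT8 was lower by -2.34 on the log2 scale (SE 0.33, adjusted p = 0.00892, limma), and it was a member through the 6.7 rpbp of 1 ZT20 library, so the selection itself made ZT20 high. Exons of Slc13a2 overlapped those of Gm11194 over 26.2% of their length. Slc47a1, an exporter of organic cations into bile, had a mean of 24.1 rpbp and an F24 of 0.0397.

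Of the 6 members from the phosphate and vesicular families, none was called rhythmic and 2 passed the F-test, against 15.2% and 7.65% of all genes. Slc17a4, an organic anion and phosphate carrier, had 7.8 and 10 rpbp at ZT0, 6.5 and 4.8 at ZT4, 7.9 and 8.2 at ZT8, 3.2 and 2.3 at ZT12, 2.9 and 1.4 at ZT16, and 8.8 and 9.7 at ZT20. The 4 libraries of ZT12 and ZT16 were the lowest, the same 4 libraries as in Slc10a1. The F-test gave an adjusted p of 0.0107, and 0.0185 for differences among ZT0, ZT4, ZT12 and ZT16. ZT0 was higher than ZT12 by 1.40 on the log2 scale (SE 0.26, adjusted p = 0.0160, limma). This contrast was lost in 4 of the 12 fits that left out a library. The neighbours of Slc17a4 in the same cluster, Slc17a2 and Slc17a3, had F-test adjusted p of 0.632 and 0.394. Slc17a8, a vesicular glutamate carrier, had a mean of 2.57 rpbp, with 4.3 and 6.3 rpbp at ZT20, and an F-test adjusted p of 0.0284. It was a member through that 6.3 rpbp alone, so it was high at ZT20 by selection, and the call was lost in 9 of 18 alternative fits.

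**Figure D4:**
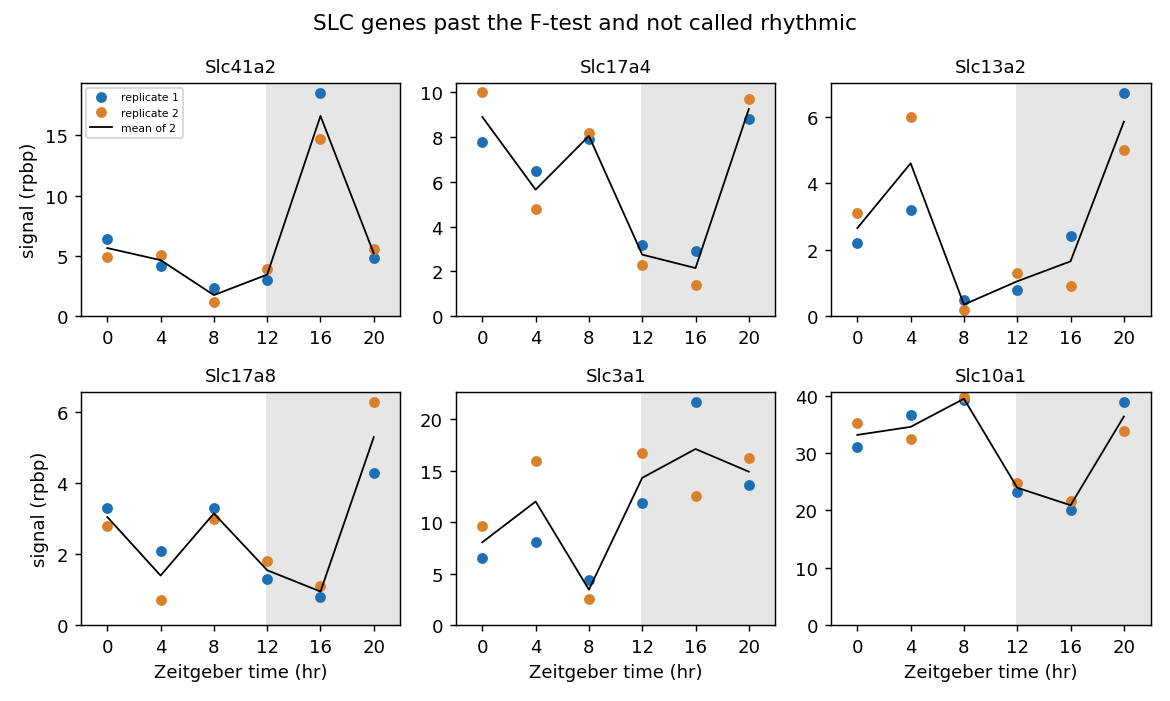
Nascent RNA signal (rpbp, axes from 0) against Zeitgeber time (hr) for the 6 SLC genes past the limma F-test and not called rhythmic, with the libraries of each replicate series as points and the mean of 2 as a line, grey for the dark phase. Slc41a2 is high at ZT16 (18.5 and 14.7 rpbp) and Slc10a1 and Slc17a4 are low at ZT12 and ZT16.

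Of 6 members from the monocarboxylate family, 2 were called rhythmic and both passed the F-test, against 15.2% and 7.65% of all genes. Slc16a12, a creatine carrier, had 2.7 and 5.0 rpbp at ZT0, 9.6 and 5.2 at ZT4, 17.8 and 17.7 at ZT8, 10.4 and 14 at ZT12, 7.2 and 5.8 at ZT16, and 6.1 and 11.5 at ZT20. Slc16a7, which carries lactate and pyruvate, had 8.5 and 7.6 rpbp at ZT8, and its other 10 libraries lay between 0.4 and 3.6 rpbp. Both genes were highest at ZT8, with F24 values of 0.544 and 0.577 and peaks at 9.69 and 7.79 hr. ZT0 was lower than ZT12 for Slc16a12, by -1.47 on the log2 scale (SE 0.35, adjusted p = 0.0429, limma). Slc16a7 was over the limit at ZT8 only and so was high there by selection, which its calls, including that of ZT8 over ZT20, do not stand apart from. The rhythm call of Slc16a12 was lost in 7 and its F-test call in 8 of the 12 fits that left out a library. Its call between ZT0 and ZT12 was lost in 6 of these 12 fits and with a replicate block. In the F-test among the 1-lane time points neither passed (adjusted p = 0.128 and 0.227). Both missed the F-test over all 6 time points once the GC trend was removed. The aromatic amino acid carrier Slc16a10, of the same family, had a mean of 12.1 rpbp and an F-test adjusted p of 0.180.

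Among the 4 sugar carriers, Slc45a3 and Slc2a9 were called rhythmic. Slc45a3 had 13 and 14.8 rpbp at ZT0, 8.4 and 12.5 at ZT4, 4.9 and 5.2 at ZT8, 17.5 and 12.7 at ZT12, 14.2 and 17.7 at ZT16, and 20.6 and 15.5 at ZT20. The libraries of ZT8 were its lowest, and ZT8 was lower than ZT20 by -1.64 on the log2 scale (SE 0.25, adjusted p = 0.0115, limma). This contrast was lost in 3 of the 12 fits that left out a library. The F24 of Slc45a3 was 0.678 with a peak at 18.6 hr. Its F-test gave an adjusted p of 0.0210, but 0.417 among the 1-lane time points, which leave out ZT8. That F-test call was lost in 3 of the 12 fits that left out a library and with the GC trend removed. Slc2a9, which carries urate, had an F24 of 0.597 and a peak at 4.86 hr, a call lost in 3 of the 12 fits that left out a library. The glucose carrier Slc2a2 had 15.8 and 29.0 rpbp at ZT0, 33.0 and 13.1 at ZT4, 52.0 and 43.8 at ZT8, 23.0 and 15.1 at ZT12, 11.6 and 6.8 at ZT16, and 24.3 and 21.6 at ZT20. Its ZT8 libraries were the highest, but the F24 was 0.377 (permutation p = 0.118) and the F-test missed the threshold (adjusted p = 0.0716). The glucose-6-phosphate translocase Slc37a4 had an F24 of 0.226.

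The remaining classes held 4 of the calls. Slc23a2, a carrier of vitamin C, had 8.8 and 6.5 rpbp at ZT8 and 3.1 to 4.8 rpbp in its other 10 libraries (F24 0.554, peak at 6.57 hr). It was over the limit at ZT8 only, so it was high there by selection. Its rhythm call was lost with the GC trend removed, and its call between ZT8 and ZT20 in 15 of 18 alternative fits. A row named svct2, another name of this gene on an overlapping span, was called with a peak at 6.60 hr. The lysosomal carrier Slc46a3 had an F24 of 0.592 and a peak at 13.3 hr. The sodium bicarbonate cotransporter Slc4a4 had 12.3 and 13 rpbp at ZT0 and 6.3 and 5.2 at ZT12, with ZT0 higher by 1.02 on the log2 scale (SE 0.21, adjusted p = 0.0227, limma), an F24 of 0.531 and a peak at 0.92 hr. Its rhythm call was lost in 6 of the 12 fits that left out a library, with the GC trend removed and with libraries rescaled by the median ratio. Its call between ZT0 and ZT12 was lost in 4 of these 12 fits. The sodium-calcium exchanger Slc8a1 (F24 0.458) had a permutation p of 0.0495, and its call was lost in 11 of the 12 fits that left out a library. None of the 8 nucleoside and nucleotide sugar carriers passed the rhythm criteria or the F-test, and 2 had an unadjusted p under 0.05 in the latter, against 27.6% of all genes.

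Peaks of the 20 rhythmic members lay all round the day. From ZT22 to ZT2 there were 5, from ZT2 to ZT6 2, from ZT6 to ZT10 6, from ZT10 to ZT14 3, and from ZT14 to ZT18 and from ZT18 to ZT22 2 each. All rhythmic genes of the table had 22.6%, 26.2%, 16.8%, 19.3%, 7.13% and 7.97% of their peaks in these windows. With the series taken apart, the peak times differed by a median of 1.7 hr, and in 19 of the 20 by at most 4 hr. The exception was Slc38a4, with 9.63 hr in the first and 5.47 hr in the second series. These genes were selected for a rhythm in both series together, so this closeness describes them and is no test.

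**Figure D5:**
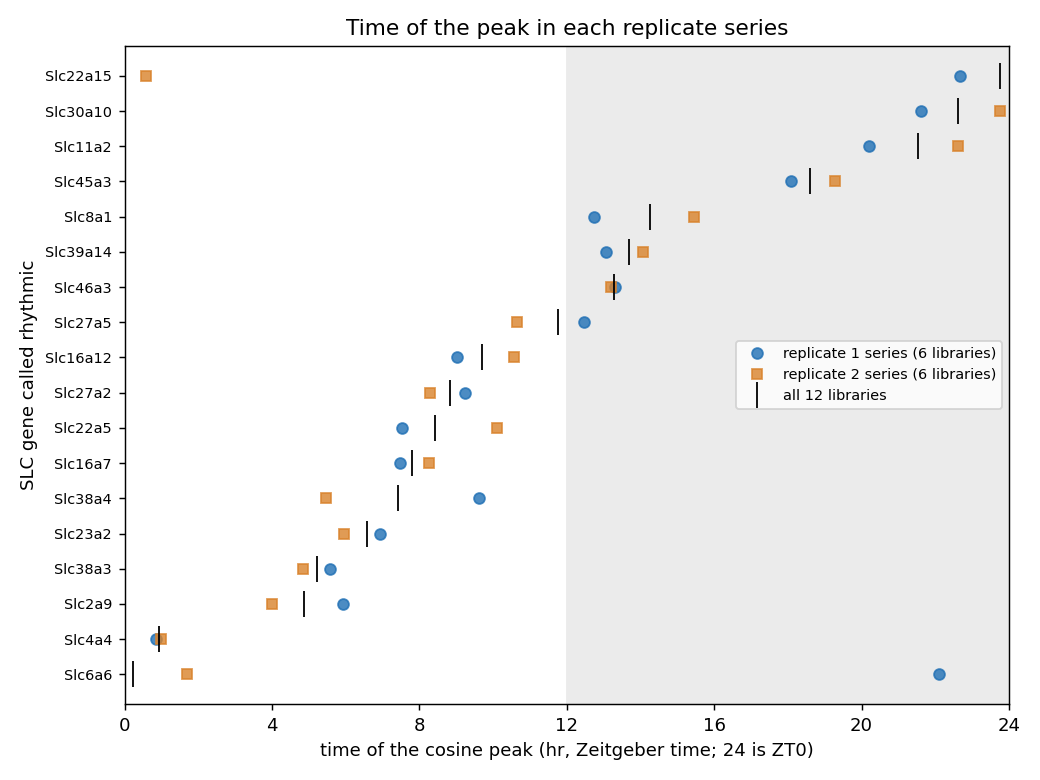
Time of the cosine peak (hr) of 18 of the 20 SLC genes called rhythmic, in the first series of 6 libraries (circles), the second (squares) and all 12 (bars), grey for the dark phase, where 24 on the axis is again ZT0. The series lie within 1 hr of each other for Slc38a3 (5.59 and 4.85 hr) and 3.60 hr apart for Slc6a6 (22.1 and 1.7 hr).

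Contrasts of opposite times gave few members. The median log2 difference over all genes tested was -0.03 for ZT0 minus ZT12, 0.20 for ZT4 minus ZT16 and 0.00 for ZT8 minus ZT20, and over the 97 members -0.11, 0.20 and 0.02. ZT0 was higher than ZT12 in 3 members, Slc30a10, Slc17a4 and Slc4a4, against 1.59% of all genes tested, and lower in 1, Slc16a12, against 2.85%. ZT4 was higher than ZT16 in 1, Slc38a3 (1.34% of all genes), and lower in 1, Slc41a2 (0.764%). ZT8, with the same number of lanes per library as ZT20, was higher in 3 members, Slc16a7, Slc38a3 and Slc23a2 (0.414% of all genes), and lower in 4, Slc13a2, Slc3a1, Slc45a3 and Slc41a2 (1.16%). Of these 7, Slc16a7 and Slc23a2 were members through ZT8 alone and Slc13a2 through ZT20 alone, so their selection favoured the difference. Leaving out ZT8 replicate 1, ZT8 replicate 2 or ZT20 replicate 1 left 0 calls between ZT8 and ZT20, and leaving out ZT20 replicate 2 left 2. Between ZT0 and ZT12, 0 calls were left without ZT0 replicate 1 or ZT12 replicate 1.

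Other transporter groups, whose symbols the rule leaves out, gave these counts beside the members. Of 20 tested genes whose symbol begins with Abc, mainly ATP-driven transporters, 10 were called rhythmic and 6 passed the F-test, against 15.2% and 7.65% of all genes. The organic anion carriers of the Slco family are solute carriers too, left out by the symbol rule because no digit follows Slc. Of 5 tested Slco genes none was called rhythmic or passed the F-test, while 3 had an unadjusted F-test p under 0.05, against 27.6% of all genes. The difference between these groups and the 97 members was not tested. A list of 30 carriers known from liver, drawn up with earlier results of these data known, had 25 genes among the members. Of these 25, 7 were called rhythmic and 4 passed the F-test, beside 15.2% and 7.65% of all genes. Slc19a2, Slc20a1 and Slc23a1, also on this list and not described above, were called by neither test (F24 0.200, 0.253 and 0.149).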

How the data were processed

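Chromatin-bound RNA from liver nuclei was sequenced by the authors in 12 libraries. The authors aligned reads to mm9 with TopHat (CASAVA 1.7 is also named in the submitters' processing notes; no TopHat version is given in the sources used here) and deposited, per gene symbol, a signal in reads per base pair of merged exons, scaled to the same number of uniquely mapped reads, without strand and rounded to 1 decimal. Rounding matters for members near 1 rpbp. The authors also deposited per gene an F24, the fraction of variance at 24 hr, with a phase and a p-value from their permutations, which were not used here, and 27919 blank lines were left out.

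Groups and replicate numbers came from the labels. The members, the gene lists and the tests were chosen with earlier results of these data known. All 6284 symbols over 6 rpbp in at least 1 library were fitted together. F24 was computed on rpbp, with 100000 permutations of the 12 values for the one-sided permutation p. The F-test and the contrasts were moderated tests in limma 3.58.1 (R 4.3.3) on log2(rpbp + 1), which understates changes of low genes, with Benjamini-Hochberg adjustment over the 6284 symbols. Other steps used Python 3.11.15, numpy 2.4.6, pandas 2.3.3 and matplotlib 3.10.9. The fits were tested on simulated data. Several rows can name the same gene (Slc11a2 and Nramp2), so symbols are not independent. The study describes the samples as independent, and the sources used here do not give the number of animals behind each.

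The genes named are the 12 members with the highest mean, up to 20 called rhythmic, up to 20 past the F-test, up to 5 per contrast and direction, the liver carriers and the 3 genes on either side of the limit. Others named were chosen after their values were seen: Slc25a30, Slc17a3, Slc31a1 and Slc9a3r1. Alternatives tried were other limits, scalings, a GC trend removal, a pseudocount of 0.1, a mean-variance trend, log values, blocks for the number of lanes and for the replicate and leaving out each library. Sequences came from the mm9 genome with GENCODE strands. Of the members, 2 are counted but not reported by name here.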

Additional observations from a re-analysis of the deposited data

How the results depend on the processing

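The 20 rhythmic calls became 1 with Benjamini-Hochberg adjusted permutation p, and stayed between 14 and 25 under the other settings that used all libraries. Leaving out each library gave 16 to 22. Of the 20 genes, 10 kept their call without each library in turn. Of these 10, 9 kept it under every other setting in which they were tested but the adjustment. Slc22a15 and Slc16a7, among these 9, have means of 2.96 and 2.95 rpbp and were not tested with a limit of 6 rpbp on the mean. The 12 F-test calls ran from 9 to 12 under the other limits, scalings and models, and from 5 to 16 without each library (5 without ZT0 replicate 1 and without ZT8 replicate 2, 7 without ZT12 replicate 1). The 4 calls between ZT0 and ZT12 became 7 with libraries rescaled by the median ratio and 8 with the GC trend removed, and ran from 0 to 10 without each library. The 2 calls between ZT4 and ZT16 became 1 with a mean-variance trend, and ran from 0 to 7. The 7 calls between ZT8 and ZT20 became 4 with a limit on the mean over 12 libraries, which drops members under it, and ran from 0 to 8. No named gene reversed its direction in a contrast that called it. With a replicate block the counts were 19 rhythmic, 10 by the F-test, and 3, 2 and 2 in the contrasts, the last down from 7. Same-numbered libraries did not deviate together throughout (15 correlations of deviations from the time-point means, from -0.12 to 0.32, 5 of them over 0.1), so the numbers were not taken to pair the samples. The cause of these shifts was not tested. GC content was known for 5196 of the 6284 symbols and all 97 members. With 2 libraries per time point, differences under about 1.5-fold could not be told from the spread between replicates for many members.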
